A study of Mus musculus with 17 samples.

Results

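Cathepsins, cystatins and stefins were followed by 10 genes in cells sorted from NOD mice. The 6 cathepsins were Ctss, Ctsb, Ctsd, Ctsh, Ctsl and Ctsz, and the 4 inhibitors were the cystatins Cst3 and Cst7 and the stefins Cstb and Stfa3. They are 10 of the 17097 genes that the arrays measured with a probe set of their own. Each gene was read by 1 probe set, chosen by its highest mean over the 17 arrays, and no comparison between groups entered that choice. The 10 genes were listed with earlier results of these arrays known, so the tests below describe them and are not independent evidence that they respond.

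NOD is an inbred strain whose males develop lymphocyte infiltrates of the lacrimal gland and serve as a model of Sjögren's syndrome. All arrays came from male NOD mice with no added allele or agent in the labels. The 5 groups were lacrimal gland B cells (4 arrays), spleen B cells (3 arrays), lacrimal gland CD4 T cells (4 arrays), spleen CD4 T cells (3 arrays) and lacrimal gland epithelial cells (3 arrays). Gland donors were 16 weeks old. The labels give 16 weeks for the spleen samples too, whereas the study's design text gives spleen donors of 4 weeks as a steady-state control. Organ and donor age therefore cannot be told apart if the design text holds, and any gland and spleen difference carries both. Epithelial cells were sorted as CD45-CD326+. B cells were the CD45+B220+CD3- cells and CD4 T cells the CD45+CD3+CD4+B220- cells, both without NKp46, CD11b or CD11c on the surface. Gland tissue was dissociated mechanically and by enzymes, and no such step is stated for spleen. Nothing in the labels says that arrays of a group came from separate animals, so p-values speak only to the spread among these samples, and that spread can be technical.

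Cathepsins are proteases of endosomes and lysosomes that break down proteins, ripen other enzymes and cut antigens and the invariant chain for loading of MHC class II. Most of them, including Ctss, Ctsb, Ctsh, Ctsl and Ctsz, are cysteine proteases, whereas Ctsd is an aspartic protease that cystatins and stefins do not block. Cystatins are secreted or granule-bound inhibitors of cysteine cathepsins, and stefins are their cytosolic relatives. In the lacrimal gland, Ctss has been studied as a tear protease linked to Sjögren's syndrome.

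Values are the log2 levels deposited by the authors, and a difference of 1 is a 2-fold change. The median of all values was 4.71, and no detection calls accompanied the values. A level below that median is not shown to be above background, and a fold change against such a level may understate the true one. A gene was called where limma's Benjamini-Hochberg adjusted p over all 17097 genes was under 0.05 and the change was at least 2-fold. Levels of different genes come from different probes and are compared only through their differences between groups. In sorted bulk RNA, fewer cells of a type and less RNA per cell cannot be told apart.

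The sorts matched their labels in lineage genes. The 4 B cell markers averaged 9.61 to 9.92 in B cells and 5.08 or lower elsewhere, and the 4 CD4 T cell markers 10.10 to 10.34 in CD4 T cells and 5.52 or lower elsewhere. Genes of other cell types were also high in several groups. Epithelial array 1 held leukocyte RNA, with the mean level of 3 leukocyte genes (Ptprc, Coro1a and Laptm5) at 9.20 against 3.65 and 4.10 in the other epithelial arrays. A list of 9 CD8 T and NK cell genes stood at 6.51 on that array against 3.69 and 3.50, and the 11 macrophage and monocyte genes at 5.87 against 4.20 and 4.34. Spleen B array 3 held neutrophil RNA, with 7 neutrophil genes at 6.40 against 3.54 and 3.50. Epithelial genes were higher in all gland lymphocyte arrays than in spleen, with 6 such genes at 6.02 to 6.43 against 4.04 to 4.19 in spleen lymphocytes, and at 9.55 to 10.09 in epithelium. The 8 secretory genes of the gland ran from 8.24 to 9.66 in gland lymphocytes against 3.73 to 5.81 in spleen lymphocytes. The epithelial arrays also read genes of other gland cells. The 5 endothelial genes stood at 8.08 to 8.62 there against 3.18 to 4.50 in gland lymphocytes, the 5 myoepithelial genes at 9.40 to 9.64 against 4.35 to 4.88, the 6 fibroblast genes at 5.86 to 6.43 against 2.93 to 3.17 and 2 red cell precursor genes at 8.88 to 9.23 against 4.54 to 5.97. Their part in the differences between epithelium and lymphocytes was not tested.

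In gland CD4 T cells 5 of the 10 genes rose over spleen CD4 T cells, the inhibitors Stfa3 and Cst7 and the cathepsins Ctsh, Ctsl and Ctsb, and 0 fell. Over all genes 5.35% were called higher and 1.62% lower in that comparison. In gland B cells 1 of the 10 rose over spleen B cells, Ctsl, and 0 fell, beside 2.58% of all genes higher and 1.6% lower. The median log2 difference of the 10 genes was 0.83 in CD4 T cells, against -0.03 over all genes, and 0.05 in B cells, against 0.00 over all genes. Stfa3 ranked 15 of 17097 genes by the size of its increase in CD4 T cells, Cst7 ranked 142 and Ctsh 282.

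**Figure D1:**
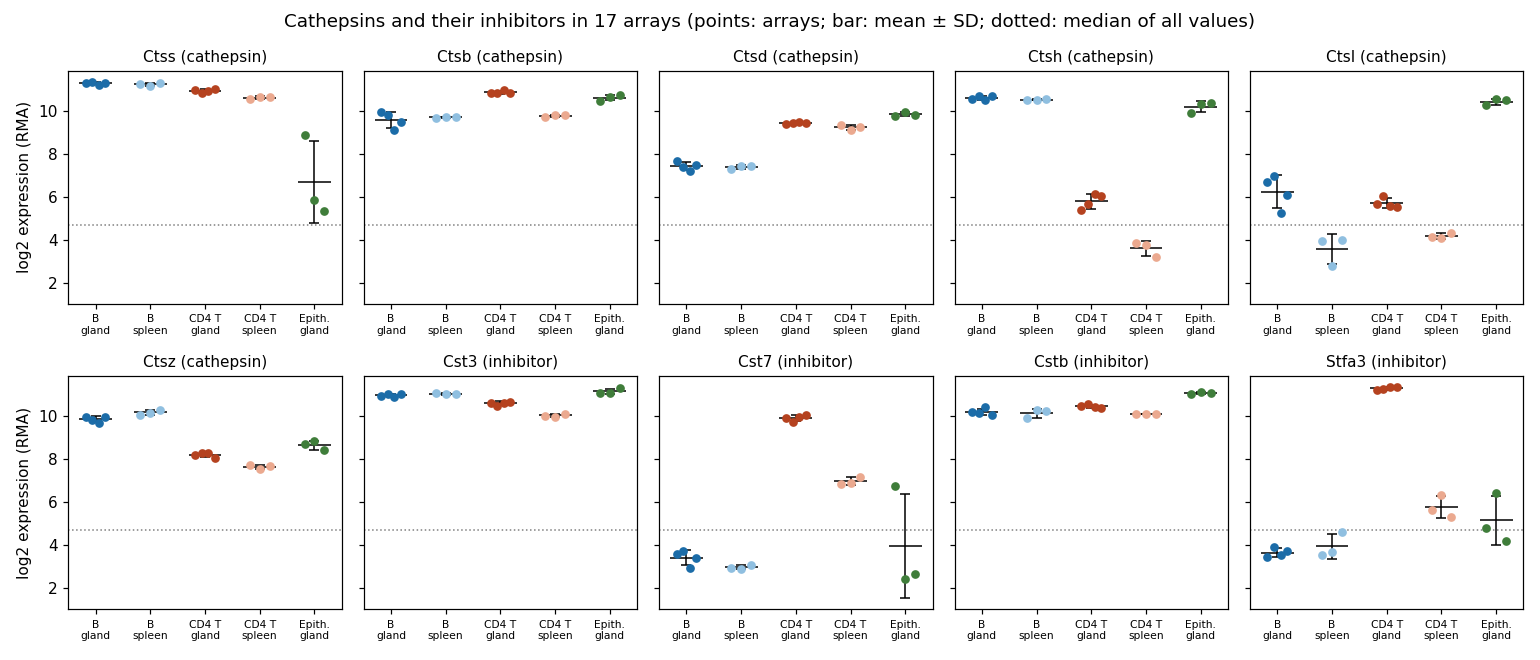
Log2 expression (RMA, vertical axis) of the 6 cathepsins and 4 inhibitors in each array (points), with the mean and SD of each of the 5 groups and the median of all values, 4.71, as a dotted line. Stfa3 stands at 11.21 to 11.36 in gland CD4 T cells and at 6.41 or lower in every other array, and Ctsl stands at 10.26 or higher only in epithelium.

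Ctss, the endopeptidase that removes the invariant chain in B cells and other antigen-presenting cells, was a leukocyte gene in these sorts. Its log2 levels were 11.27, 11.34, 11.21 and 11.27 in gland B cells and 11.25, 11.16 and 11.29 in spleen B cells. In CD4 T cells they were 10.96, 10.80, 10.93 and 10.99 in the gland and 10.52, 10.63 and 10.65 in the spleen. Epithelial cells gave 8.85, 5.84 and 5.34. B cells of both organs overlapped, the 2 CD4 T groups did not overlap, and epithelium lay below every lymphocyte array. The high epithelial value belongs to array 1, the array with leukocyte RNA.

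Ctss in epithelium differed by -4.59 on the log2 scale from the level in gland B cells (SE 0.53, 24.2-fold, limma adjusted p = 1.38e-06) and by -4.25 from the level in gland CD4 T cells (SE 0.53, 19-fold, adjusted p = 3.62e-06). Without epithelial array 1 the differences were -5.68 (51.3-fold) and -5.33 (40.3-fold). The gland and spleen difference in CD4 T cells was 0.32, with an adjusted p of 0.749 over all arrays and of 0.0279 without that epithelial array. It was 0.04 in B cells (95% interval -1.09 to 1.17 over all arrays, and -0.18 to 0.25 without epithelial array 1).

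The sequence before the Ctss start is shown because it holds a match to the core of the interferon-stimulated response element, searched on both strands as GAAA, any 2 bases, GAAA. It is the 250 bases upstream of the RefSeq start in GRCm38.p6, chr3:95526536-95526785, plus strand, and the capitals mark the match, 21 bases before the start.
Ctss: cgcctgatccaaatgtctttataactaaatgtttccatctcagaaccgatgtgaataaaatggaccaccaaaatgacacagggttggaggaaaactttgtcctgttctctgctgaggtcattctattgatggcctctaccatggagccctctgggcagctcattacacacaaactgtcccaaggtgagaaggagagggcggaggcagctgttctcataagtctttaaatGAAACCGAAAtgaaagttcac
Of 32851 RefSeq promoters read in the same window, 2.98% held such a match. The match is a description of the letters and not evidence of binding.

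Ctsb, a cysteine protease that acts as an endopeptidase and trims dipeptides, rose in gland CD4 T cells. It stood at 10.82, 10.82, 10.95 and 10.83 there, against 9.71, 9.79 and 9.78 in spleen CD4 T cells. The groups did not overlap and differed by 1.09 (SE 0.14, 2.13-fold, limma adjusted p = 3.37e-05). B cells gave 9.93, 9.79, 9.10 and 9.48 in the gland and 9.67, 9.69 and 9.70 in the spleen, and epithelium 10.46, 10.64 and 10.72. All 4 gland CD4 T arrays were higher than each epithelial array on this probe set. Gland B cells spread widely around the narrow range of spleen B cells, and their difference was -0.11 with a 95% interval of -0.41 to 0.20. The change in CD4 T cells exceeded that in B cells by 1.20 (SE 0.20, adjusted p = 0.000898).

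Of the 4 Ctsb probe sets, 3 were called in gland against spleen CD4 T cells, with differences of 1.09, 1.50 and 1.33. The other gave 0.77, under the 2-fold minimum, and on it epithelium (7.41 to 7.63) lay above gland CD4 T cells (6.89 to 7.05). In epithelium Ctsb was higher than in gland B cells by 1.03 (2.04-fold, limma adjusted p = 1.12e-05), a change at the edge of the 2-fold minimum. The other 3 probe sets gave 2.02 (4.07-fold), 1.50 and 1.06, all called. On the probe set used here the call was lost with array weights (0.97), without gland B array 3 (0.87), without gland B array 4 (just under 1.0) and without epithelial array 3 (0.97).

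Ctsd, the aspartic protease of lysosomes, was lower in B cells than in the other cell types and was not called between the organs. It was low in B cells, at 7.67, 7.37, 7.22 and 7.46 in the gland and 7.28, 7.44 and 7.41 in the spleen. CD4 T cells gave 9.39, 9.42, 9.46 and 9.42 in the gland and 9.34, 9.11 and 9.24 in the spleen, and epithelium gave 9.74, 9.93 and 9.81. No B cell array overlapped with any other cell type, and the 2 CD4 T groups did not overlap with each other. Ctsd in gland B cells differed by -1.99 from gland CD4 T cells (3.97-fold, limma adjusted p = 3.89e-11) and in spleen B cells by -1.85 from spleen CD4 T cells (3.62-fold, adjusted p = 7.02e-10). Epithelium was 2.40 above gland B cells (5.26-fold, adjusted p = 3.63e-12). Gland and spleen differed by 0.05 in B cells (95% interval -0.15 to 0.26) and by 0.19 in CD4 T cells (-0.01 to 0.39).

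The Ctsd window is shown because it carries 2 matches to the E-box CACGTG, the letters read by transcription factors of the TFEB family that drive lysosomal genes. They lie 245 and 98 bases before the RefSeq start, in chr7:142387828-142388077 of GRCm38.p6, minus strand, and stand in capitals.
Ctsd: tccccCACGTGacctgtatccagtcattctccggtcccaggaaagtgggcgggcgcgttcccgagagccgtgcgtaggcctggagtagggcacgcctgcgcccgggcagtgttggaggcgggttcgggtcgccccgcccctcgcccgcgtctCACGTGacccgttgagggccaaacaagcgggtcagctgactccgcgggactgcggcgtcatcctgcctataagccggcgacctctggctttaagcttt
The same motif occurred in 6.02% of the 32851 promoters, and the window of Ctsl held 1 match, 236 bases before its start. The family members measured did not follow 1 order. Tfeb was higher in B cells than in CD4 T cells, by 1.42 in the gland and 1.50 in the spleen. Mitf was highest in epithelium (mean 8.23) and stood at a mean of 6.83 in CD4 T cells of the gland, 6.90 in those of the spleen and, in B cells, of 6.55 in the gland against 5.86 in the spleen. Tfe3 averaged 8.65 to 9.41 over the 5 groups, with 0 calls in the 7 comparisons.

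Ctsh, a cysteine protease that acts mainly as an aminopeptidase, was a gene of B cells and epithelium. B cells stood at 10.55, 10.70, 10.50 and 10.66 in the gland and 10.50, 10.49 and 10.55 in the spleen, and epithelium at 9.91, 10.29 and 10.36. Gland CD4 T cells gave 5.37, 5.68, 6.12 and 6.03 and spleen CD4 T cells 3.88, 3.75 and 3.22. Every spleen CD4 T array lay below the median of all values and every gland CD4 T array above it. Ctsh rose by 2.18 in gland CD4 T cells (SE 0.18, 4.54-fold, limma adjusted p = 1.85e-07) and differed by 0.09 between gland and spleen B cells (95% interval -0.29 to 0.47). The difference of these changes was 2.10 (SE 0.25, adjusted p = 3.5e-05). B cells exceeded CD4 T cells by 4.80 in the gland (27.9-fold) and 6.90 in the spleen (119-fold), the latter against levels not shown to be above background.

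Ctsl, an endopeptidase that processes the invariant chain in thymic epithelium, rose in both gland lymphocyte subsets and was highest in epithelium. Gland B cells gave 6.69, 6.98, 5.24 and 6.08 against 3.97, 2.78 and 3.99 in spleen B cells. Gland CD4 T cells gave 5.67, 6.05, 5.57 and 5.52 against 4.16, 4.07 and 4.33 in spleen CD4 T cells. Epithelial arrays stood at 10.26, 10.52 and 10.48. All spleen arrays were below the median of all values, and no gland array overlapped with its spleen counterparts. Ctsl rose by 2.67 in B cells (SE 0.34, 6.35-fold, limma adjusted p = 6.25e-05) and by 1.52 in CD4 T cells (SE 0.34, 2.86-fold, adjusted p = 0.0037). The changes differed by -1.15 between the subsets, with an adjusted p of 0.168. Without gland B array 3 that difference was -1.49 and passed (adjusted p = 0.0215). Epithelium exceeded gland B cells by 4.17 (18-fold, adjusted p = 2.29e-08) and gland CD4 T cells by 4.71 (26.2-fold, adjusted p = 5.86e-09).

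Epithelial genes, like Ctsl, were higher in gland than in spleen lymphocytes. Of the 6 epithelial markers, 3 rose in gland B cells (Krt18, Krt8 and Cdh1) and 4 in gland CD4 T cells (Krt18, Krt8, Cdh1 and Epcam). Krt18, a keratin of simple epithelia, stood at 8.20 to 8.74 in gland B cells and 8.33 to 8.96 in gland CD4 T cells, against 4.16 to 4.79 in spleen lymphocytes and 11.92 to 12.14 in epithelium. On gland B arrays 1 to 4 Krt18 was 8.60, 8.20, 8.74 and 8.57, beside Ctsl at 6.69, 6.98, 5.24 and 6.08. Epcam was 6.01, 5.80, 6.41 and 6.22 there, and the secretory gene Obp1a 11.47, 11.38, 11.27 and 11.04. The 6 epithelial genes averaged 6.02 to 6.25 over the gland B arrays, with 6.07 on array 3 and 6.02 on array 2. Gland B array 3, the lowest for Ctsl, was also the lowest gland B array for the macrophage gene Lyz2, at 4.54 against 6.86 to 7.51, and for the 11 macrophage and monocyte genes, at 4.30 against 4.54 to 4.78. In B cells 0 of those 11 genes were called between the organs. Single macrophage genes did not share 1 order over the gland B arrays. C1qa was also lowest on gland B array 3, at 4.15. Csf1r was highest there, at 4.17, and Cd68 was lowest on gland B array 4, at 6.84. The 4 plasmacytoid dendritic cell genes stood at 7.77 on gland B array 3 against 8.26 to 8.76 on the other gland B arrays and 7.48 to 7.66 in spleen B cells, and Ccr9 was called higher among them (2.13). Flt3, of 6 conventional dendritic cell genes, was 1.51 higher in gland B cells and Cd8a 1.47 higher, both called. In CD4 T cells the 11 macrophage and monocyte genes averaged 4.39 to 4.47 in the gland and 3.48 to 4.09 in the spleen, and Cd14 was the gene called among them. Lyz2 stood at 6.46 to 7.34 and at 2.23 to 5.91. The part of RNA from epithelial, myeloid, dendritic or CD8 T cells in the Ctsl, Ctsb and Ctsh results was not tested. The other Ctsl probe set stayed at 2.33 to 3.33 in every group and showed differences of 0.04 in both subsets, so the Ctsl calls rest on 1 probe set, and the mean of both gave 0.78 in CD4 T cells.

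**Figure D2:**
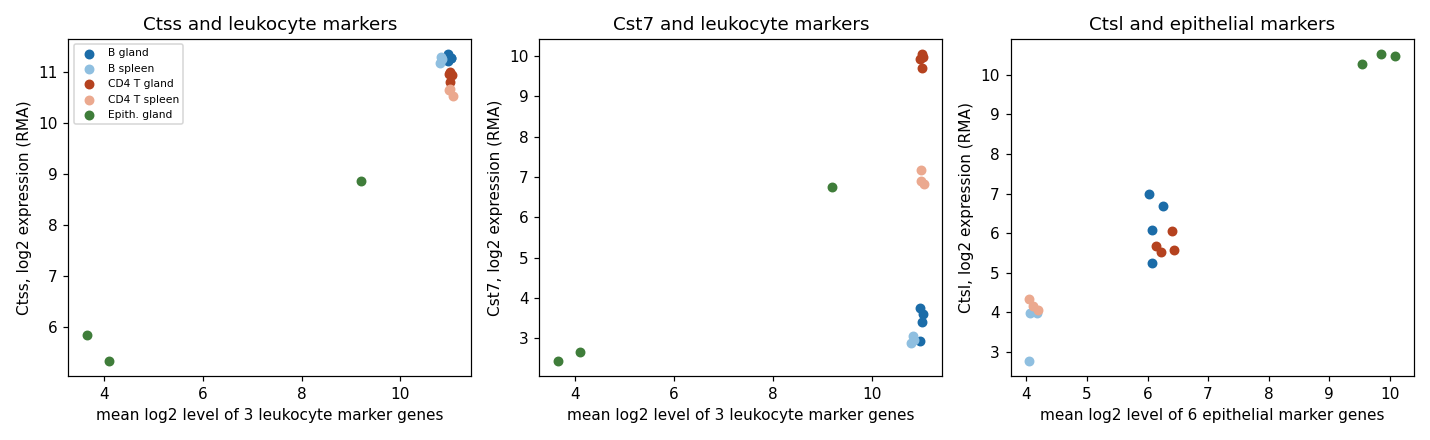
Log2 expression of Ctss, Cst7 and Ctsl (vertical axes) against the mean log2 level of 3 leukocyte genes or 6 epithelial genes (horizontal axes) in each of the 17 arrays, coloured by group. Epithelial array 1, at a leukocyte level of 9.20, has the highest Ctss (8.85) and Cst7 (6.75) of the 3 epithelial arrays, and gland lymphocytes lie between spleen lymphocytes and epithelium in both Ctsl and the epithelial genes.

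Ctsz, a carboxypeptidase also found at the surface of myeloid cells, was highest in B cells. It stood at 9.95, 9.81, 9.65 and 9.94 in gland B cells and 10.05, 10.14 and 10.29 in spleen B cells. Gland CD4 T cells gave 8.19, 8.29, 8.28 and 8.07, spleen CD4 T cells 7.72, 7.55 and 7.67, and epithelium 8.69, 8.83 and 8.41. All 5 groups were separate in their ranges, and the organs differed in opposite directions in B and CD4 T cells. Ctsz was higher in B than in CD4 T cells by 1.63 in the gland (3.1-fold, limma adjusted p = 1.74e-09) and 2.51 in the spleen (5.71-fold, adjusted p = 6.78e-11). Its gland and spleen difference was 0.56 in CD4 T cells (adjusted p = 0.00106) and -0.32 in B cells (adjusted p = 0.0506), both under the 2-fold minimum, and these changes differed by 0.88 (adjusted p = 0.00106).

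Among the inhibitors, Stfa3 marked gland CD4 T cells. Stfa3 encodes stefin A3, a cytosolic cysteine protease inhibitor of a gene cluster best known from mouse myeloid cells. Its log2 levels in gland CD4 T cells were 11.21, 11.25, 11.36 and 11.33, against 5.64, 6.35 and 5.33 in spleen CD4 T cells. Gland B cells gave 3.45, 3.91, 3.53 and 3.74, spleen B cells 3.54, 3.67 and 4.63, and epithelium 4.82, 6.41 and 4.21. No array outside gland CD4 T cells exceeded 6.41, and all 7 B cell arrays lay below the median of all values. Stfa3 rose by 5.51 in gland CD4 T cells (SE 0.39, 45.6-fold, limma adjusted p = 4.87e-08) and differed by -0.29 between gland and spleen B cells (95% interval -1.13 to 0.55). The change in CD4 T cells exceeded that in B cells by 5.80 (SE 0.56, adjusted p = 3.87e-06).

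Neutrophil genes, which are expressed in the cells best known for stefin A genes, were not called in CD4 T cells (0 of 7 higher, 0 lower). The 7 neutrophil genes stood at 3.25 to 3.35 in gland CD4 T cells and 3.30 to 3.44 in spleen CD4 T cells, and S100a8, a defining neutrophil gene, at 2.95 to 3.04 and 3.0 to 3.49. The 11 macrophage and monocyte genes averaged 4.39 to 4.47 in gland and 3.48 to 4.09 in spleen CD4 T cells, and 1, Cd14, was called higher. The part of RNA from myeloid cells in the Stfa3 result was not tested. In spleen B cells the highest Stfa3 value, 4.63, came from array 3, where S100a8 was 9.63. The neighbours Csta1, Csta2 and Stfa2l1 stayed between 1.64 and 4.34 in all arrays, and Stfa2l1 was highest, at 3.44, in spleen B array 3. Stfa1 and Stfa2 had no probe set of their own here, and whether their RNA binds the Stfa3 probe set was not tested.

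Cst7, which encodes cystatin F, an inhibitor targeted to lysosomes and granules of cytotoxic and myeloid cells, was the other inhibitor that rose. It stood at 9.91, 9.71, 9.97 and 10.04 in gland CD4 T cells and 6.83, 6.90 and 7.18 in spleen CD4 T cells. Gland B cells gave 3.61, 3.75, 2.94 and 3.40, spleen B cells 2.96, 2.88 and 3.07, and epithelium 6.75, 2.45 and 2.66. B cells and 2 of the 3 epithelial arrays lay below the median of all values, and the high epithelial array was array 1 with its leukocyte RNA. Cst7 rose by 2.94 in gland CD4 T cells (SE 0.69, 7.65-fold, limma adjusted p = 0.00498). Without epithelial array 1, which widens the shared spread, the difference was again 2.94, with an SE of 0.16 and an adjusted p of 3.32e-09. The change exceeded that in B cells by 2.48, with an adjusted p of 0.136 over all arrays and 2.53e-06 without epithelial array 1.

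Cytotoxic cell genes stood beside Cst7 as follows. The 9 CD8 T and NK cell genes averaged 5.51 to 5.77 in gland CD4 T cells and 5.04 to 5.42 in spleen CD4 T cells, and 0 of 9 were called in either direction over all arrays. Without epithelial array 1, 2 of the 9 were called higher, Nkg7 and Gzmb, and 0 lower. Nkg7, a granule membrane gene, stood at 10.67 to 10.85 and at 8.03 to 8.26 without overlap, and at 9.30 on epithelial array 1. It differed by 2.63 (limma adjusted p = 0.0709 over all arrays and 8.94e-06 without epithelial array 1) and Gzmb, granzyme B, by 1.41 (adjusted p = 0.0659 and 8.35e-05). Cd8a differed by 0.04 and Cd8b1 by -0.37, and Ncr1, the gene of NKp46, by 0.05. The part of RNA from these or from myeloid cells in the Cst7 result was not tested.

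The upstream windows of Stfa3 and Cst7 are shown together because both genes rose in gland CD4 T cells. Stfa3 is given from chr16:36455393-36455642, minus strand, and Cst7 from chr2:150570165-150570414, plus strand, both in GRCm38.p6 from RefSeq.
Stfa3: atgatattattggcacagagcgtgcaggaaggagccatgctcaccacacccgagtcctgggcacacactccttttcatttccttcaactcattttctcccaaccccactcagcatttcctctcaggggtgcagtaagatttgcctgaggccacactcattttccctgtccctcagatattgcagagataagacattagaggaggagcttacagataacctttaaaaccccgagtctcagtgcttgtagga
Cst7: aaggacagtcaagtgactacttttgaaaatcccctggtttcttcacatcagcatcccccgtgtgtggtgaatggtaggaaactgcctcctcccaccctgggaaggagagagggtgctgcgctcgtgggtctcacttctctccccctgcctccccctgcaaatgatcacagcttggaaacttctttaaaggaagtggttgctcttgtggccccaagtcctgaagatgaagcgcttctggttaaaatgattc
Neither window held the E-box, the response element core or the AP-1 site TGANTCA, which 6.75% of the 32851 promoters held, so no letter stands in capitals. This says only that these letters are not in these windows. RefSeq windows were found for 7 of the 10 genes.

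Cst3, which encodes cystatin C, a secreted inhibitor made by most cells, varied little. Its levels were 10.91, 11.04, 10.86 and 11.01 in gland B cells, while spleen B cells gave 11.07, 11.00 and 11.00, and epithelium 11.05, 11.08 and 11.28. CD4 T cells gave 10.62, 10.44, 10.61 and 10.66 in the gland and 10.01, 9.97 and 10.09 in the spleen, without overlap. The CD4 T difference of 0.56 (SE 0.08, limma adjusted p = 6.29e-05) was 1.47-fold and not called. Spleen B cells exceeded spleen CD4 T cells by 1.0 (adjusted p = 1.13e-07), at the edge of the 2-fold minimum.

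Cstb, the gene of cystatin B (stefin B), a cytosolic inhibitor of cathepsins that leak from lysosomes, was also even across lymphocytes. Gland B cells gave 10.19, 10.14, 10.40 and 10.06, spleen B cells 9.89, 10.26 and 10.21, gland CD4 T cells 10.44, 10.54, 10.41 and 10.38, and spleen CD4 T cells 10.11, 10.09 and 10.08. Epithelium was highest at 11.01, 11.12 and 11.06, above every lymphocyte array. It exceeded gland B cells by 0.87 (limma adjusted p = 8.2e-07) and gland CD4 T cells by 0.62 (adjusted p = 3.37e-05), both under the 2-fold minimum. The other Cstb probe set gave 1.14 against gland B cells and passed. In CD4 T cells gland exceeded spleen by 0.35 (adjusted p = 0.0146), or 1.27-fold.

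**Figure D3:**
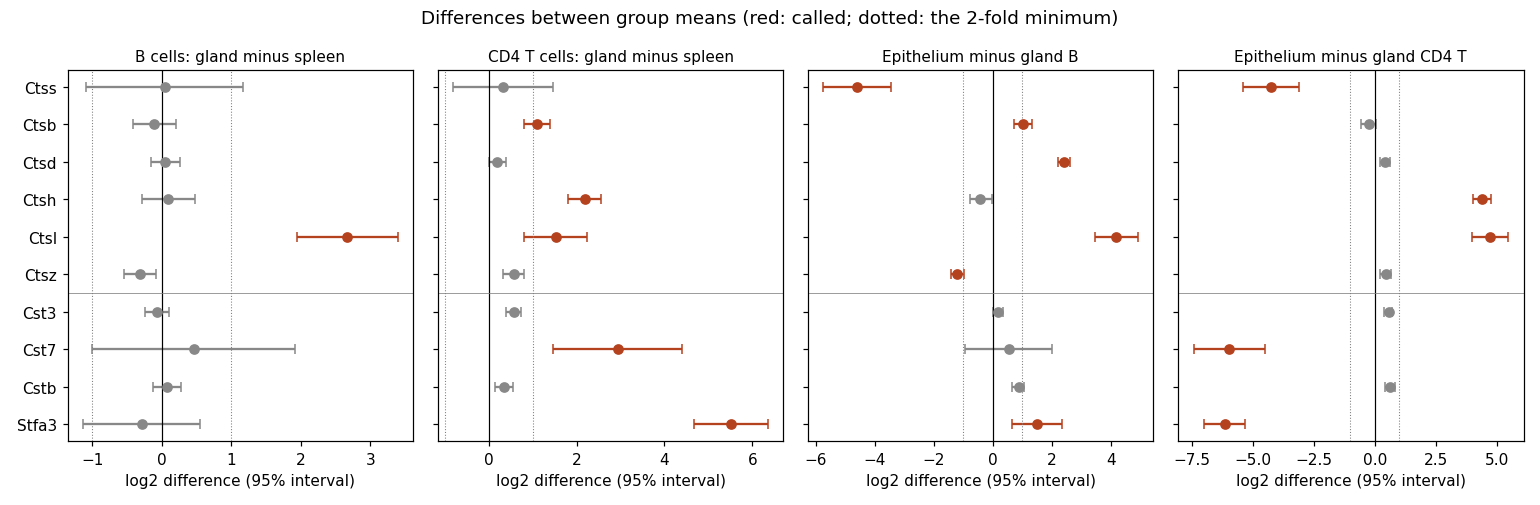
Differences between group means on the log2 scale (points) with 95% intervals (bars) for the 10 genes in 4 comparisons, red where called and grey where not, with dotted lines at the 2-fold minimum. Stfa3, at 5.51, lies farthest right in gland against spleen CD4 T cells, and Ctsl, at 2.67, is the gene in red for gland against spleen B cells.

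Set against each other, the gland effects in the 2 lymphocyte subsets differed for 3 of the 10 genes, Stfa3, Ctsh and Ctsb. Cst7 passed too without epithelial array 1. All 3 changes were larger in CD4 T cells, and 0 were larger in B cells. Over all genes 3.87% were called in the same direction and 1.22% in the other.

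Epithelial cells differed from both gland lymphocyte subsets in the makeup of their cathepsins. Against gland B cells 4 genes were higher (Ctsl, Ctsd, Stfa3 and Ctsb) and 2 lower (Ctss and Ctsz), beside 16.2% and 10.4% of all genes. Against gland CD4 T cells 2 were higher (Ctsl by 4.71 and Ctsh by 4.39) and 3 lower (Stfa3, Cst7 and Ctss), beside 14.8% and 10.6% of all genes. Of the 6 cathepsins followed here, Ctsl alone was called higher, and Ctss alone lower, in both comparisons. Cst7 differed by -5.96 from gland CD4 T cells (62-fold), and by -7.35 (163-fold) without epithelial array 1. The Stfa3 difference from gland B cells, 1.49 (limma adjusted p = 0.00386), was 0.86 and under the 2-fold minimum without epithelial array 2, the array with the Stfa3 value of 6.41. These comparisons share the epithelial arrays.

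B and CD4 T cells differed in 6 of the 10 genes in the gland and 5 in the spleen. In the gland Ctsh and Ctsz were higher in B cells, and Stfa3, Cst7, Ctsd and Ctsb lower, beside 3.73% of all genes higher and 5.97% lower. In the spleen Ctsh and Ctsz were higher in B cells, and Cst7, Stfa3 and Ctsd lower, beside 4.63% and 4.52%. The Stfa3 difference was -7.63 in the gland (198-fold, limma adjusted p = 9.4e-11) and -1.83 in the spleen (3.55-fold, adjusted p = 0.00404). For Cst7 it was -6.48 (89.5-fold) and -4.00 (16-fold). Ctsb differed by -1.28 in the gland and by -0.08 in the spleen (95% interval -0.40 to 0.25). B cell Stfa3 and Cst7 levels were below the median of all values, so these folds may be too small.

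The balance of proteases and inhibitors was described by the mean log2 level of the 6 cathepsins minus that of the 4 inhibitors in each array. Its zero point depends on the probes, and only its changes between groups can be read. It was 2.10 ± 0.17 (SD, n = 4) in gland B cells, 1.74 ± 0.16 (n = 3) in spleen B cells, -2.07 ± 0.08 (n = 4) in gland CD4 T cells, -0.71 ± 0.13 (n = 3) in spleen CD4 T cells and 1.57 ± 0.32 (n = 3) in epithelium. Epithelial array 1, the array with leukocyte RNA, was the lowest of its group, at 1.24 against 1.58 and 1.89. In gland CD4 T cells the balance differed from that of the spleen by -1.36, since cathepsins averaged 0.98 higher and inhibitors 2.34 higher. In B cells it was 0.36 higher in the gland, with cathepsins 0.40 higher and inhibitors 0.04 higher. That value rests on Ctsl, since the other 5 cathepsins changed by -0.05 on average and the balance without Ctsl by -0.09. No array of gland CD4 T cells overlapped with spleen CD4 T cells, and B cells of the 2 organs overlapped at 1.89 and 1.92.

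The direction of the balance in CD4 T cells depended on which inhibitors were counted. With the broadly expressed Cst3 and Cstb alone, gland CD4 T cells were 0.53 above spleen CD4 T cells. With Cst7 and Stfa3 alone the difference was -3.25. In B cells the corresponding values were 0.40 and 0.32. The 4 inhibitors differed in size of change, at 5.51, 2.94, 0.56 and 0.35, and the CD4 T value of -1.36 rests on Stfa3 and Cst7. The average also weighs in Ctsd, which these inhibitors do not block, and RNA levels give no enzyme activity.

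**Figure D4:**
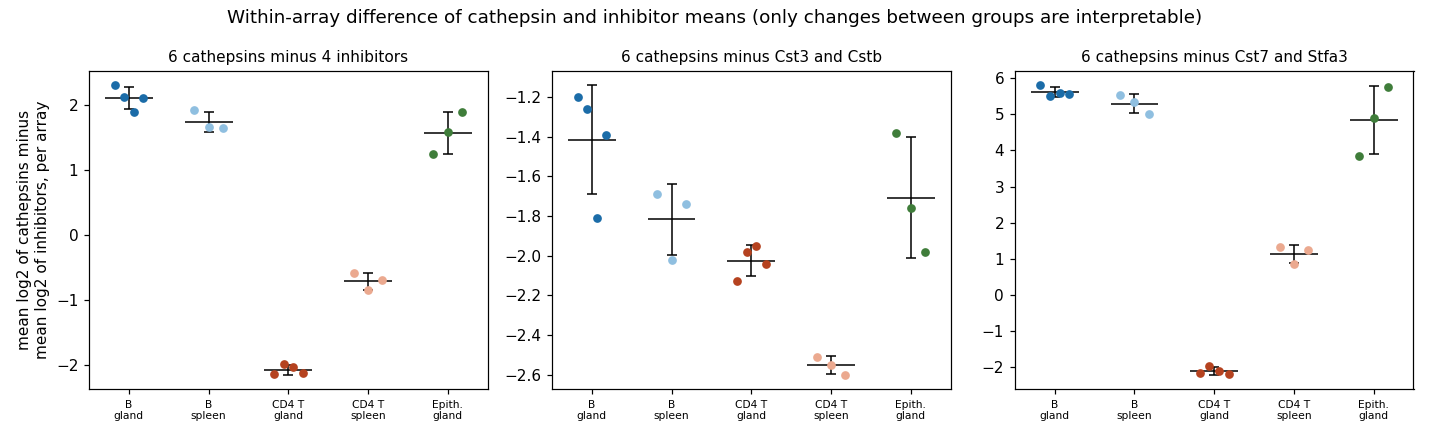
Mean log2 level of 6 cathepsins minus that of the inhibitors (vertical axis) in each array (points), with group means and SD, for all 4 inhibitors, for Cst3 and Cstb, and for Cst7 and Stfa3. Gland CD4 T cells lie below spleen CD4 T cells with all 4 inhibitors (-2.07 against -0.71) and above them with Cst3 and Cstb (-2.03 against -2.55).

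Other cathepsins and lysosomal endopeptidases were mostly not called between gland and spleen, with all 10 listed genes measured. Of all genes, 5.35% were called higher and 1.62% lower in CD4 T cells, and 2.58% and 1.6% in B cells. Ctso, cathepsin O, was the gene called, and it fell in both subsets. It was 5.94, 3.95, 5.24 and 5.34 in gland CD4 T cells against 6.81, 7.03 and 6.77 in spleen CD4 T cells, without overlap, a difference of -1.75 (limma adjusted p = 0.00105). In B cells it was 6.75, 7.0, 6.42 and 6.85 against 7.92, 7.75 and 7.65, a difference of -1.02 (adjusted p = 0.0478) that lost its call in every fit without 1 array of the groups compared (largest adjusted p 0.139). Ctsw was higher in the gland without overlap, at 10.41 to 10.62 against 9.54 to 9.65 in CD4 T cells and 5.63 to 5.97 against 4.47 to 5.54 in B cells. Lgmn was lower in the gland without overlap, at 3.35 to 3.59 against 4.11 to 4.45 in CD4 T cells and 5.35 to 6.01 against 6.02 to 6.17 in B cells. Neither was called, with or without epithelial array 1. The median log2 difference of the 10 genes was 0.01 for B cells and -0.10 for CD4 T cells.

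Between B and CD4 T cells 5 of these 10 genes were called in the gland and 3 in the spleen. In the gland 3.73% of all genes were called higher in B cells and 5.97% lower, and in the spleen 4.63% and 4.52%. Ctsw, cathepsin W, a protease of cytotoxic and other T cells, stood at 10.41 to 10.62 in gland and 9.54 to 9.65 in spleen CD4 T cells, against 4.47 to 5.97 in B cells (limma adjusted p = 0.000485 in the gland and 0.00185 in the spleen). In epithelium it was 9.35 on array 1 and 3.78 and 3.51 on the others, again the array with leukocyte RNA. Napsa, the aspartic protease napsin A, stood at 9.25 to 10.06 in B cells and at 4.57 or lower elsewhere, a difference between gland B and CD4 T cells of 5.10 (34.2-fold, limma adjusted p = 1.19e-13). Lgmn, the asparagine endopeptidase that activates other cathepsins, was higher in B than in CD4 T cells by 2.18 in the gland (limma adjusted p = 6.14e-10) and 1.87 in the spleen (3.25e-08). Ctsc, the dipeptidyl peptidase that activates granzymes, was 1.47 higher in gland B than in gland CD4 T cells (adjusted p = 6.4e-07). Epithelium was lowest in Ctse, at 1.61 to 2.50 against 4.95 to 6.63 in lymphocytes, and highest in Ctsf, at 5.83 to 6.45 against 3.91 to 4.65. On another Ctsf probe set epithelium differed by 0.01 from gland B cells and by 0.11 from gland CD4 T cells. The mean of the Ctsf probe sets gave 0.90 and 0.89, under the 2-fold minimum. Ctsa, a carboxypeptidase that protects lysosomal enzymes, differed by -1.37 between epithelium and gland B cells. Another Ctsa probe set gave -0.24, and the mean of its probe sets -0.81. Ctsg and Ctsk stayed below the median of all values on every array.

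Among 17 of 24 other listed inhibitor genes that were measured, 4 rose and 0 fell in gland CD4 T cells, beside 5.35% and 1.62% of all genes. In B cells these shares were 2.58% and 1.6%. The 4 that rose in CD4 T cells were Ctla2b (1.53), Ctla2a (1.42), Serpinb6b (1.04) and Serpinb1a (1.02), with limma adjusted p from 0.000422 to 0.0135. Serpinb1a lost its call in several settings, among them with only the CD4 T groups in the fit (adjusted p = 0.0735), without gland array 2 (0.72), without spleen array 3 (0.71) and on its other probe set (0.77). Serpinb6b lost it with array weights (0.99) and without gland array 2 (0.98) or spleen array 2 (0.92). The Ctla2 genes encode inhibitors that resemble the propeptide of cathepsin L, and Serpinb1a and Serpinb6b encode cytosolic serpins that chiefly block serine proteases. In gland B cells 0 rose and 1 fell, Serpinb6b, with a difference of -1.06 (adjusted p = 0.00308), a call that dropped under the 2-fold minimum with the replicate block (-0.98), without gland B array 2 (-0.98) or 4 (-0.94), and without spleen B array 1 (-1.0) or 3 (-0.99). Ctla2a stood at 8.63, 9.51, 8.82 and 8.68 in gland CD4 T cells against 7.52, 7.38 and 7.58 in spleen CD4 T cells, at 4.35 to 5.85 in B cells and at 10.05 to 10.43 in epithelium. Ctla2a was highest in epithelium, and epithelial genes were higher in CD4 T cells of the gland, as given above. Their part in the Ctla2 result was not tested. The changes of Serpinb6b, Ctla2a and Ctla2b differed between the subsets by 2.10, 1.94 and 1.74.

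Serpinb1a was a B cell gene, at 9.72 to 10.10 in B cells against 2.43 to 4.96 in all other arrays, and its rise in CD4 T cells, from 3.41, 3.28 and 2.43 to 3.59, 4.96, 4.04 and 3.64, ran mostly below the median of all values. Cst10, a cystatin, read 8.97, 10.71 and 2.07 in epithelium and 8.96 on gland CD4 T array 3, against 2.07 to 2.99 on every other array. Its epithelial call against gland B cells (4.79, limma adjusted p = 0.0213) thus rests on 2 of 3 arrays. Timp1, a metalloprotease inhibitor on the same list, was 1.10 higher in epithelium than in gland B cells, and 0.63 without epithelial array 2.

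**Figure D5:**
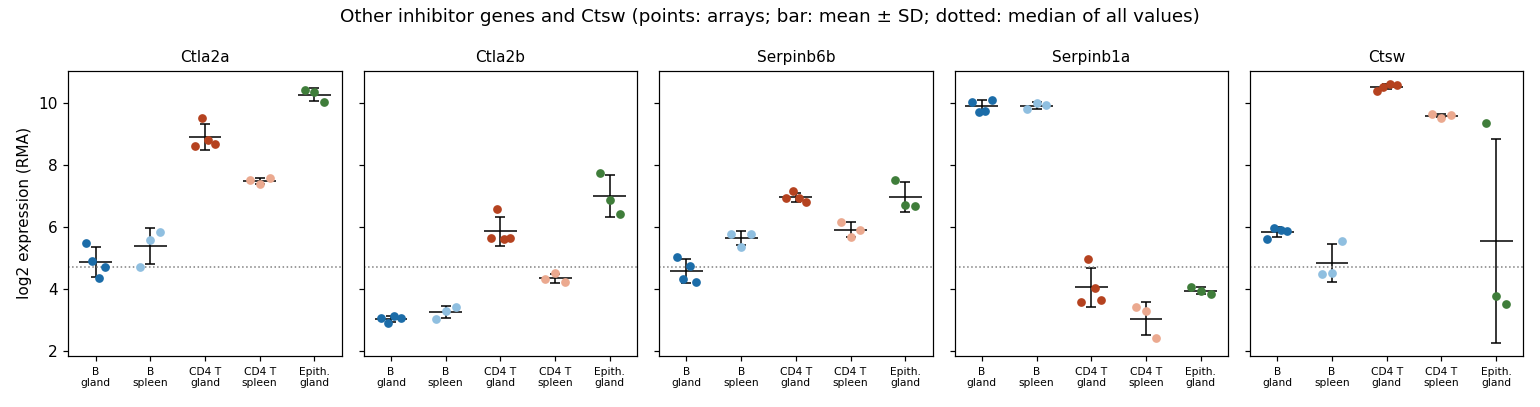
Log2 expression (RMA, vertical axis) of Ctla2a, Ctla2b, Serpinb6b, Serpinb1a and Ctsw in each array (points), with group means and SD and the median of all values, 4.71, as a dotted line. Serpinb1a stands at 9.72 or higher in B cells and at 4.96 or lower elsewhere, and Ctsw at 9.54 or higher in CD4 T cells.

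MHC class II genes, whose products the cathepsins serve, rose in gland CD4 T cells. Of 12 genes 6 rose in gland CD4 T cells (H2-Ab1, Cd74, H2-Eb1, H2-Aa, H2-DMb2 and H2-DMa) and 1 fell (H2-Ob), beside 5.35% and 1.62% of all genes. In gland B cells 0 of 12 were called. The test of the difference between the subsets passed for 4 of the 12 (H2-Ab1, Cd74, H2-Eb1 and H2-DMb2, by 1.18 to 2.79), beside 3.87% of all genes. With the replicate block H2-Ab1, H2-Eb1 and H2-DMb2 lost that call (limma adjusted p = 0.0516, 0.057 and 0.0609), as they did in several fits without 1 array. H2-DMb2 also lost it with quantile normalization, for the mean of its probe sets (0.81) and on its other probe set (0.44). H2-Eb1 lost it with limma's trend and robust options, and H2-Ab1 on other probe sets (1.80 and 2.09). Without epithelial array 1 the test passed for 5 higher and 1 lower. In CD4 T cells the H2-Ob fall was -0.66 for the mean of its probe sets and -0.23 on the other probe set, and lost its call without gland array 1 or 2 or spleen array 1. H2-DMa lost its call with array weights and without gland array 2 (0.99) or spleen array 2 (0.97). The other probe sets gave 0.54 for H2-DMb2 and 0.01 for H2-Aa. Cd74, the invariant chain that Ctss and Ctsl cut, stood at 8.67, 9.47, 9.20 and 9.23 in gland CD4 T cells against 6.14, 6.43 and 6.46 in spleen CD4 T cells, and differed by 2.80 (limma adjusted p = 0.000288). H2-Ab1, an MHC class II chain, differed by 2.93 (adjusted p = 0.000677). In B cells Cd74 stood at 12.28 to 12.39 in both organs. The 4 B cell markers averaged 4.43 to 5.08 in gland CD4 T cells and 4.54 to 4.81 in spleen CD4 T cells, and 0 of 4 were called. The 5 plasma cell genes averaged 8.07 to 8.36 in gland and 6.19 to 6.67 in spleen CD4 T cells, and 4 of them were called higher (Jchain, Prdm1, Irf4 and Xbp1). Ctsh, Ctsb and Ctsl rose in the same comparison, and the part of RNA from other cells in it was not tested.

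General lysosomal genes were mostly even between gland and spleen. The shares of all genes called higher and lower were 2.58% and 1.6% in B cells and 5.35% and 1.62% in CD4 T cells. Of 21 measured lysosomal membrane and hydrolase genes, Gla rose in both subsets, by 3.36 for B cells and 1.93 for CD4 T cells (0.20 on another probe set), Acp5 fell in both (-1.07 and -1.06), and Grn, the gene of progranulin, rose in CD4 T cells by 1.31. Gla encodes alpha-galactosidase A, and Acp5 the tartrate-resistant acid phosphatase. Of 14 genes of lysosomal sorting, acidification and biogenesis, Sort1, the gene of the sorting receptor sortilin, was called in both subsets, by 1.01 for B cells and 1.03 for CD4 T cells, and 0 fell. Neither call held on the other probe sets of Sort1, which gave 0.94 and 0.86 for B cells and 0.18 and 0.31 for CD4 T cells. Among other settings, the calls were also lost without gland B array 1 (0.77) or 2 (0.97) or spleen B array 1 (0.86), and without gland CD4 T array 1 (0.92) or 3 (0.95) or spleen CD4 T array 1 (0.87). Sort1 was higher in epithelium than in gland B cells by 3.75 (13.4-fold). The median differences were 0.03 and -0.06 for the hydrolase list in B and CD4 T cells and 0.10 and 0.10 for the other.

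The genes most like each of the 10 across the 17 arrays were taken among 5452 genes with an SD of at least 0.5, by Pearson correlation of the log2 values. The arrays share 5 groups, so these correlations mostly restate group means and carry no p. Stfa3 was followed most closely by Sdf4 (0.975), Rgs16 (0.974) and Lclat1 (0.973), and Cst7 by Nkg7 (0.983), Sytl2 (0.982) and Fasl (0.981). Rgs16, a regulator of G protein signalling, averaged 9.0 in gland CD4 T cells and 4.55 to 5.39 in the other groups. Fasl, the Fas ligand gene, averaged 8.25 in CD4 T cells of the gland and 6.23 in those of the spleen. Ctsl went with Nipal2 (0.983), Rab15 (0.983) and Slc5a8 (0.982), and Ctss with Hcls1 (0.995), Lax1 (0.994) and Cyfip2 (0.993).

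Ctsh went with Carmil1 (0.990), Cxxc5 (0.985) and Myo1c (0.983), Ctsz with Plekho1 (0.987), Rubcn (0.986) and Hhex (0.985), and Ctsd with Prickle1 (0.994), Timp2 (0.992) and Ppic (0.989). Ctsb had less close partners, Ptprs (0.953), Slc24a3 (0.952) and Ccn4 (0.952). Ccn4 averaged 8.24 in gland CD4 T cells and 7.28 in epithelium, against 2.68 to 3.45 elsewhere. Cst3 went with Ceacam2 (0.976), Ehd4 (0.973) and Tlr3 (0.970), and Cstb with Ggh (0.970), Palmd (0.966) and Odam (0.966), the last a secreted gene at 8.81 in epithelium and 4.03 or lower elsewhere. Among the 10 genes themselves, Cst7 and Stfa3 correlated at 0.89, Ctsl and Cstb at 0.86, and Ctss and Cstb at -0.84.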

How the data were processed

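The authors deposited log2 values, 45141 probe sets by 17 arrays, made with Partek and RMA per the submitters' processing notes. The versions and the array annotation they used are not given in the sources used here. Probe sets were named from the platform's annotation, with symbols updated by gene identifier to RefSeq (GRCm38.p6). Of them 104 were controls, 28898 had exactly 1 gene, 551 several and 15588 were not listed. The probe set with the highest mean was kept for each of 17097 genes, with no filter on dim genes.

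limma 3.58.1 (R 4.3.3) was used to fit a mean for each of the 5 groups, with 12 residual and 3.17 prior degrees of freedom after eBayes, and p-values were adjusted over all genes. Errors beside differences are model standard errors. Array medians ran from 4.70 to 4.75 and correlations within groups from 0.977 to 0.996, and the number of arrays limits the precision. The sources used here name some RNA samples of lower integrity, by numbers that could not be matched to arrays. The effect of RNA quality was not tested. The pipeline was tested on simulated data. Named genes were the 10 genes, the other listed cathepsins, and up to 5 called genes per direction in each other list, with the 3 genes most like each of the 10. Markers were named to check the labels, and the stefin neighbours Csta1, Csta2 and Stfa2l1 and the gene Tfeb beside Ctsd were named after their values were seen. The genes and lists were chosen with earlier results of these data known. Alternatives are given in the closing section. Figures were drawn with matplotlib 3.10.9.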

Additional observations from a re-analysis of the deposited data

Results flagged for a closer look

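Ctsb on gland CD4 T array 3, at 10.95, stood apart from the other 3 arrays of its group, which lay at 10.82 to 10.83. It was 1 of 20 groups of 4 arrays with such a gap, and chance alone gives about 1 in 20.

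The gland and spleen difference was not the same in both lymphocyte subsets for 3 genes over all arrays. By the test of the difference itself, the change in CD4 T cells exceeded that in B cells by 5.80 for Stfa3, 2.10 for Ctsh and 1.20 for Ctsb on the log2 scale. The count rests on epithelial array 1, which is outside this comparison: Cst7, with a difference of 2.48, had a limma adjusted p of 0.136 with that array, 2.53e-06 without it, 0.00873 with array weights and 5.6e-06 with the lymphocyte groups alone.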

How the results depend on the processing

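Over the alternatives tried, 1268 of 1289 values of the 10 genes kept their direction and their side of the thresholds, 11 lost a call, 10 gained one and 0 turned direction. With no fold minimum, 8 of the 10 genes passed in gland against spleen CD4 T cells, 9 in epithelium against gland CD4 T cells and 5 in the difference of the gland effects. With array weights 5 passed in that difference, 4 higher and 1 lower, where Ctsl gave -1.44. The shares of all genes were not taken in these alternative settings, so such counts show only whether the members kept their calls. Leaving out 1 array at a time gave 1 to 1 called genes in B cells, 5 to 5 in CD4 T cells, 3 to 4 in their difference, 5 to 6 in epithelium against gland B cells, 5 to 5 against gland CD4 T cells, 6 to 6 in gland B against CD4 T cells and 5 to 6 in spleen B against CD4 T cells. The gene gained there was Cst3, at 1.01 to 1.03. Fits without epithelial array 1 were added for the lymphocyte comparisons, and the balance was also taken without Ctsl, after the data were seen.

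The replicate block, the replicate number as a term of the fit, changed 0 of 70 calls of the 10 genes (31 called with and without it), so that 5 genes were again called in CD4 T cells and 1 in B cells. Deviations of same-numbered arrays correlated at -0.397 to 0.215, and the numbers were not taken to pair arrays. Of 2481 values of the other pathway genes 2331 kept their call, 145 lost it and 5 turned direction, all on another probe set of the gene. These were Scarb2 (-0.06) and Atp6v0d2 (-0.04) in epithelium against gland B cells, and Ctsa (0.17), H2-Aa (0.06) and Acp2 (0.12) against gland CD4 T cells. The cause was not tested. Centring or quantile normalization moved the median of all genes by at most 0.029 in size, and levels under the median of all values limit what can be said of the genes that are low in a group.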
